A study of Rattus norvegicus with 12 samples.

Results

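The rat microRNAs rno-miR-146a-5p, rno-miR-146b-5p and rno-miR-155-5p (written without the prefix from here on) were followed in rat serum by small RNA sequencing after caffeine, dextromethorphan or both drugs. They were chosen by name, as microRNAs induced by the transcription factor NF-kB, and all 3 were present among 752 mature microRNA names and among the 366 that were abundant enough to test. The animals were male rats of the Jcl:SD Sprague-Dawley stock, 7 weeks of age, dosed by mouth a single time, with sterile distilled water as the vehicle in every group. The control group (libraries ctrl1, ctrl3 and ctrl5) had this vehicle alone. The caffeine group (CAF3, CAF4, CAF5) had 180 mg/kg caffeine, a stimulant that blocks adenosine receptors. The dextromethorphan group (DEX1, DEX2, DEX3) had 200 mg/kg dextromethorphan hydrobromide monohydrate, a cough suppressant that blocks NMDA receptors. The combination group (CAFDEX2, CAFDEX3, CAFDEX6) had both at these doses. The schedule listed for all 4 groups has the dextromethorphan dose 1 h after the caffeine dose and blood drawn 1 h after dextromethorphan. Under that schedule blood was drawn later after caffeine than after dextromethorphan. The design names 5 rats per group, and 3 libraries per group were analysed here.

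NF-kB is switched on when Toll-like receptors or cytokine receptors are engaged, and the members were listed as microRNAs that it induces. How far this holds for each of them was not tested here. The miR-146 pair is known as a brake on that pathway, because it represses the adaptor proteins IRAK1 and TRAF6 that carry the receptor signal to NF-kB. miR-155 is made from the Bic transcript in activated macrophages, B cells and T cells, and it is known to favour inflammation by repressing the inhibitors SOCS1 and SHIP1. In serum such microRNAs are carried in vesicles and protein complexes shed by blood cells and tissues. A higher serum level from more cells releasing a microRNA and one from more microRNA per cell cannot be told apart in these data.

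The mature sequences show which members share a seed, the stretch that pairs with target messenger RNAs. They are given 5′ to 3′ from RefSeq (build GRCr8), with the seed, bases 2 to 8 from the 5′ end, in capitals.
miR-146a-5p: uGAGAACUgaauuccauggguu
miR-146b-5p: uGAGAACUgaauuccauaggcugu
miR-155-5p: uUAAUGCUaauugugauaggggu
miR-146a-5p and miR-146b-5p share the seed GAGAACU, which no other mature rat microRNA among 693 in the reference carried, and the first 17 bases are the same in both. Over the 22 positions they have in common they differ by G18A and U21C (the miR-146a-5p base first, positions counted from the 5′ end), and miR-146b-5p has 2 more bases at its 3′ end. miR-155-5p has 23 bases and a different seed, UAAUGCU, which no other reference microRNA shared. The pair also come from separate genes. In the files' coordinates (rn6 per the submitters' processing notes) miR-146a-5p lies on chromosome 10 at 28962533 to 28962554 on the minus strand, miR-146b-5p on chromosome 1 at 266089502 to 266089525 on the plus strand, and miR-155-5p on chromosome 11 at 24176606 to 24176628 on the plus strand.

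Values are FPKM, reads scaled by the length of the mature microRNA and by the total of reads assigned to the listed microRNAs, so they are levels per length and relative to the other microRNAs of the same library. Assigned reads ranged from 1304868 to 2625593 in control libraries, 1504963 to 1842796 after caffeine, 403913 to 895792 after dextromethorphan and 758290 to 1160717 after both. The members were well above the reading limit in every library. The lowest recovered read number was 2634 for miR-146a-5p, 361 for miR-146b-5p and 266.5 for miR-155-5p. Recovered reads were not whole numbers in 7 of 12 libraries for miR-146a-5p, 2 of 12 for miR-146b-5p and 5 of 12 for miR-155-5p. A measure of red-cell content, the log2 ratio of miR-451-5p to miR-23a-3p, ran from -7.79 to -7.09 in control, -7.09 to -6.39 after caffeine, -6.46 to -5.12 after dextromethorphan and -6.42 to -5.66 after both. It therefore moved with treatment, highest in DEX2 and DEX3, which were also the shallowest libraries, and no treated group overlapped the controls. A fit with this ratio as a covariate therefore cannot separate it from treatment. The ratio rested on 38 to 139.5 reads of miR-451-5p per library. After caffeine, where the ratio was higher, the summed erythrocyte list given below was lower. Most of that sum was miR-16-5p, with a mean of 4773900 FPKM over the 12 libraries, against 4024 FPKM for miR-451-5p. The median log2 difference of the list after caffeine was 0.18, against 0.19 for all tested microRNAs. After dextromethorphan 4 of its 10 tested microRNAs passed as higher by the limma test below, beside 11.5% of all.

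miR-146a-5p was the most abundant member. It stood at 156487, 135381 and 233374 FPKM in ctrl1, ctrl3 and ctrl5. After caffeine it was 459613, 304367 and 413344 FPKM in CAF3, CAF4 and CAF5, and all 3 libraries lay above all 3 controls. After dextromethorphan it was 209718, 330177 and 296362 FPKM in DEX1, DEX2 and DEX3, where DEX1 lay below ctrl5. After both drugs it was 1012010, 632464 and 392136 FPKM in CAFDEX2, CAFDEX3 and CAFDEX6. These libraries were above every control and above every dextromethorphan library, but CAFDEX6 lay inside the caffeine range and CAFDEX2 far above the rest. As a share of reads it made up 0.385% ± 0.113 in control (SD, n = 3), 0.863% ± 0.175 with caffeine, 0.613% ± 0.137 with dextromethorphan and 1.49% ± 0.688 with the combination, and its rank by level in a library went from 33 at the lowest, in ctrl1 and ctrl3, to 8 in CAFDEX2.

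miR-146b-5p, with the same seed, was nearly level across the study. It was 42324, 35436 and 32283 FPKM in ctrl1, ctrl3 and ctrl5, and 42803, 27449 and 32476 FPKM in CAF3, CAF4 and CAF5. It was 34467, 33911 and 38065 FPKM in DEX1, DEX2 and DEX3, and 52545, 39041 and 31051 FPKM in CAFDEX2, CAFDEX3 and CAFDEX6. Every treated group overlapped the controls. Its highest library was 1.91 times its lowest, against 7.48 times for miR-146a-5p and 5.94 times for miR-155-5p.

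miR-155-5p was the least abundant member in control serum, at 11529, 9257 and 17376 FPKM in ctrl1, ctrl3 and ctrl5. After caffeine it was 24225, 14982 and 27388 FPKM in CAF3, CAF4 and CAF5, where CAF4 lay within the control range. After dextromethorphan it was 13760, 26122 and 37460 FPKM in DEX1, DEX2 and DEX3, the widest spread of its 4 groups, with DEX1 again among the controls. After both drugs it was 55018, 45583 and 38320 FPKM in CAFDEX2, CAFDEX3 and CAFDEX6. Each of these was higher than every library of the other 3 groups.

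**Figure D1:**
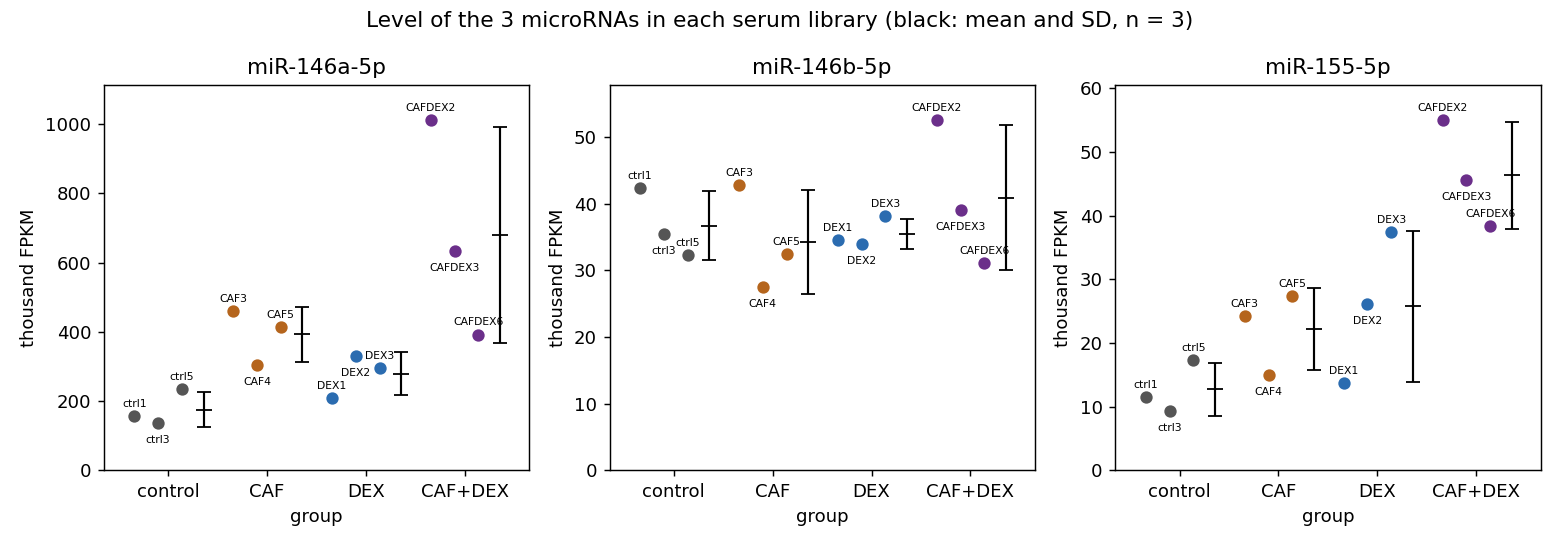
Level of each microRNA (vertical axes, FPKM scaled as labelled, starting at 0 and differing between panels) in the 12 libraries by group; points are libraries and black bars the mean and SD of 3. miR-146a-5p and miR-155-5p are highest in the combination group, with means of 678870 and 46307 FPKM, while miR-146b-5p stays between 27449 and 52545 FPKM.

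The members were then set side by side within each library. In control serum miR-146a-5p was 3.697 to 7.23 times as abundant as miR-146b-5p, which was 1.86 to 3.83 times as abundant as miR-155-5p, and the ranges of the 3 did not overlap. The same order held after caffeine, with miR-146b-5p 1.19 to 1.83 times miR-155-5p and their ranges still apart. After dextromethorphan miR-146b-5p and miR-155-5p overlapped, and after both drugs miR-155-5p was the higher of them in 3 of 3 libraries, with a miR-146b-5p to miR-155-5p ratio of 0.810 to 0.955 and overlapping ranges. The difference between these last levels was not tested.

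Differences between groups were tested with limma on log2(FPKM + 40) over all 366 microRNAs, and adjusted p-values are Benjamini-Hochberg values over those 366. After caffeine miR-146a-5p rose 2.27-fold (95% interval 1.40 to 3.68, n = 3 per group), a log2 difference of 1.18 ± 0.33 (SE) with a limma adjusted p of 0.0419. miR-155-5p had a log2 difference of 0.81 ± 0.36 (1.02-fold to 2.99-fold, adjusted p = 0.182), and miR-146b-5p of -0.11 ± 0.26 (0.630-fold to 1.35-fold, adjusted p = 0.828). So 1 of 3 members passed as higher, where 6.83% of all tested microRNAs did (7.92% passed in either direction), and 26.0% of them had all caffeine libraries above all controls as miR-146a-5p did. The median log2 difference of all tested microRNAs was 0.19. The call for miR-146a-5p was lost without ctrl1 (adjusted p = 0.149), ctrl3 (0.188), CAF3 (0.111), CAF4 (0.0723), CAF5 (0.135) or DEX3 (0.0545), and with median-of-ratios scaling (log2 difference 0.93, adjusted p = 0.0779). With the red-cell ratio as a covariate its log2 difference was 0.89 (adjusted p = 0.281).

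After dextromethorphan none of the 3 members passed by limma, where 11.5% of tested microRNAs passed as higher and 12.0% in either direction. miR-155-5p had the lowest p of them, an unadjusted limma p of 0.0190 and a log2 difference of 0.95 ± 0.36 (1.13-fold to 3.30-fold, n = 3 per group, adjusted p = 0.0849). miR-146a-5p had 0.68 ± 0.33 (0.992-fold to 2.60-fold, adjusted p = 0.163) and miR-146b-5p -0.04 ± 0.26 (0.663-fold to 1.43-fold, adjusted p = 0.910). The median log2 difference of all tested microRNAs was 0.47 here. For both miR-146a-5p and miR-155-5p DEX1 was the lowest library of its group, and without it miR-155-5p had a log2 difference of 1.35 and passed (limma adjusted p = 0.0130). Without DEX2 and DEX3 together, the shallowest libraries with the highest red-cell ratios, DEX1 alone was left in the group. miR-155-5p then had a log2 difference of 0.16 and miR-146a-5p of 0.30. With the red-cell ratio as a covariate miR-155-5p had 0.0258 (adjusted p = 0.994) and miR-146a-5p -0.0332 (0.994). With voom on recovered read numbers 0 of the 3 passed as well.

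After both drugs miR-146a-5p and miR-155-5p both rose, by almost the same factor. miR-146a-5p rose 3.702-fold (95% interval 2.29 to 5.996, n = 3 per group), a log2 difference of 1.89 ± 0.33 (SE) with a limma adjusted p of 0.00390. miR-155-5p rose 3.72-fold (2.18 to 6.35), also 1.89 ± 0.36 on the log2 scale, with an adjusted p of 0.00740. miR-146b-5p had a log2 difference of 0.13 ± 0.26 (0.747-fold to 1.61-fold, adjusted p = 0.760). By unadjusted p miR-146a-5p and miR-155-5p ranked 3 and 4 of 366. Of all tested microRNAs 6.56% passed as higher and 10.9% in either direction, 18.0% had all combination libraries above all controls, and the median log2 difference was 0.24. The call for miR-146a-5p held without each library in turn (adjusted p from 0.00116 to 0.0374), while that for miR-155-5p was lost by a narrow margin without ctrl1 (adjusted p = 0.0503) or CAFDEX2 (0.0516). With the red-cell ratio as a covariate neither passed: miR-146a-5p had a log2 difference of 1.31 (adjusted p = 0.509) and miR-155-5p of 1.15 (0.661). That ratio was higher in every combination library than in every control, so this fit cannot separate it from treatment.

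The combination was also set against each drug alone, to show what the second drug added. Against caffeine alone miR-155-5p had a log2 difference of 1.09 ± 0.36 (1.25-fold to 3.64-fold, n = 3 per group), and all 3 combination libraries lay above all 3 caffeine libraries, as was the case for 3.55% of tested microRNAs. It had the lowest p of all 366, with a limma adjusted p of 0.786. No microRNA passed in that comparison by limma or by voom, and 22 had an unadjusted limma p below the 0.05 level. miR-146a-5p had 0.71 ± 0.33 (1.01-fold to 2.64-fold, adjusted p = 0.793) and miR-146b-5p 0.25 ± 0.26 (0.809-fold to 1.74-fold). Against dextromethorphan alone, where 3.55% of tested microRNAs passed in either direction, 0.273% as higher and 3.28% as lower, miR-146a-5p had a log2 difference of 1.204 ± 0.33 (1.42-fold to 3.73-fold, adjusted p = 0.0554) and miR-155-5p of 0.94 ± 0.36 (1.13-fold to 3.29-fold, adjusted p = 0.202). Both had all combination libraries above all dextromethorphan libraries, as 3.83% of tested microRNAs did. With median-of-ratios scaling both passed, at log2 differences of 1.45 and 1.19 (adjusted p = 0.00935 and 0.0477). Most other settings gave no call: of the 12 alternatives described at the end, miR-146a-5p passed in 4 and miR-155-5p in 2. Without each library in turn they passed in 2 and 0 of 12 runs, with limma adjusted p up to 0.258 and 0.492.

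Dextromethorphan set directly against caffeine gave log2 differences of -0.50 ± 0.33 for miR-146a-5p (0.437-fold to 1.15-fold), 0.07 ± 0.26 for miR-146b-5p and 0.15 ± 0.36 for miR-155-5p (0.648-fold to 1.89-fold), with limma adjusted p-values of 0.544, 0.950 and 0.899. Of all tested microRNAs 2.46% passed there. The signs of the last values, for miR-146b-5p and miR-155-5p, were negative with median-of-ratios scaling (-0.09 and -0.01). The interaction contrast asks whether both drugs together differ from the sum of their separate log2 effects. It was 0.02 ± 0.46 for miR-146a-5p (95% interval -0.96 to 1.01), 0.29 ± 0.37 for miR-146b-5p (-0.49 to 1.07) and 0.14 ± 0.51 for miR-155-5p (-0.95 to 1.23). None passed (adjusted p = 0.981, 0.766 and 0.916), and 4.64% of tested microRNAs did, all of them below the sum, with a median over all 366 of -0.39 (0.10 with median-of-ratios scaling). The intervals of miR-146a-5p and miR-155-5p reach nearly 1 log2 unit in either direction, while that of miR-146b-5p reaches that far only above 0.

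**Figure D2:**
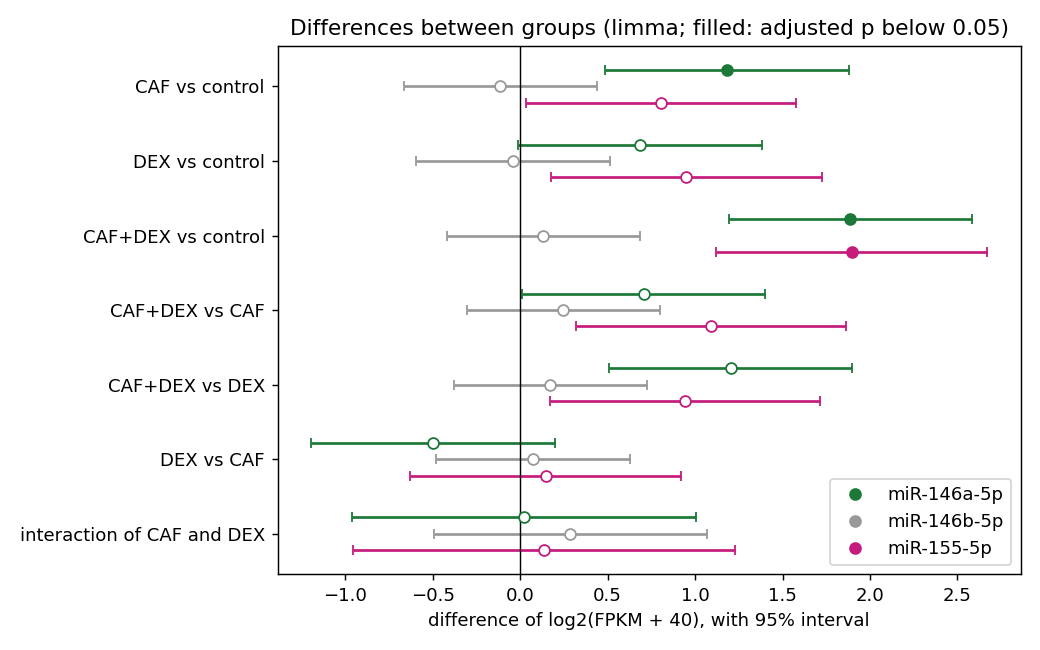
Log2 differences between groups with 95% intervals (horizontal axis) for the 3 microRNAs in the 6 pairs of groups and the interaction contrast; filled points have a limma adjusted p below 0.05. miR-146a-5p passed after caffeine and after both drugs, at 1.18 and 1.89, miR-155-5p after both drugs, at 1.89, and miR-146b-5p had values from -0.11 to 0.29.

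Because FPKM depends on all other microRNAs of a library, ratios between members within a library were tested too, since these do not change with how a library is scaled. The log2 ratio of miR-146a-5p to miR-146b-5p was 2.22 ± 0.55 in control (SD, n = 3), 3.52 ± 0.13 with caffeine, 2.95 ± 0.34 with dextromethorphan and 3.98 ± 0.31 with the combination. It was 1.89 in ctrl1 and 1.93 in ctrl3, and 2.85 in ctrl5, the highest control and above DEX1 at 2.60. All caffeine and all combination libraries lay above all controls. The 4 groups differed (exact permutation p = 0.00214 over 369600 assignments of libraries, adjusted 0.00857 over the 4 ratios tested), and the adjusted p was at most 0.0374 without any single library. Each single comparison of 3 against 3 libraries can reach no p below 0.1, which caffeine and the combination had by two-sided exact permutation, while dextromethorphan had 0.2.

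In read numbers, miR-146a-5p supplied 80.6% ± 5.43 of the reads that carry the GAGAACU seed in control (SD, n = 3), 91.3% ± 0.703 with caffeine, 87.5% ± 2.57 with dextromethorphan and 93.5% ± 1.31 with the combination. Reads of the pair together were 0.473% ± 0.107 of all assigned reads in control and 1.59% ± 0.714 after both. The reference gave sequences for 338 tested microRNAs, which form 127 pairs with a common seed. Ranked by how far the log2 changes of the pair lay apart, miR-146a-5p and miR-146b-5p came 9 after caffeine, at 1.30 log2 units, 34 after dextromethorphan, at 0.725, and 6 after both drugs, at 1.76. The median over the 127 pairs was 0.40, 0.40 and 0.38 in these comparisons.

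The other ratios gave no difference that passed. The log2 ratio of miR-155-5p to miR-146a-5p was -3.79 ± 0.07 in control (SD, n = 3), -4.17 ± 0.22 with caffeine, -3.52 ± 0.49 with dextromethorphan and -3.78 ± 0.42 with the combination. The exact permutation p over the 4 groups was 0.222 (adjusted 0.296). The control libraries were close together, from -3.86 to -3.74, and the caffeine libraries were all lower. miR-150-5p, a microRNA abundant in mature lymphocytes, served as a further partner. It was 318029 to 650815 FPKM in control, 854347 to 1765537 after caffeine, 663152 to 1044434 after dextromethorphan and 1616751 to 2525060 after both. The log2 ratio of miR-146a-5p to miR-150-5p was -1.39 ± 0.33, -1.64 ± 0.40, -1.60 ± 0.11 and -1.71 ± 0.54 in the same order of groups (n = 3 each, exact permutation p = 0.760, adjusted 0.760). That of miR-155-5p to miR-150-5p was -5.18 ± 0.38, -5.81 ± 0.21, -5.12 ± 0.59 and -5.49 ± 0.27 (n = 3 each, exact permutation p = 0.189, adjusted 0.296).

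**Figure D3:**
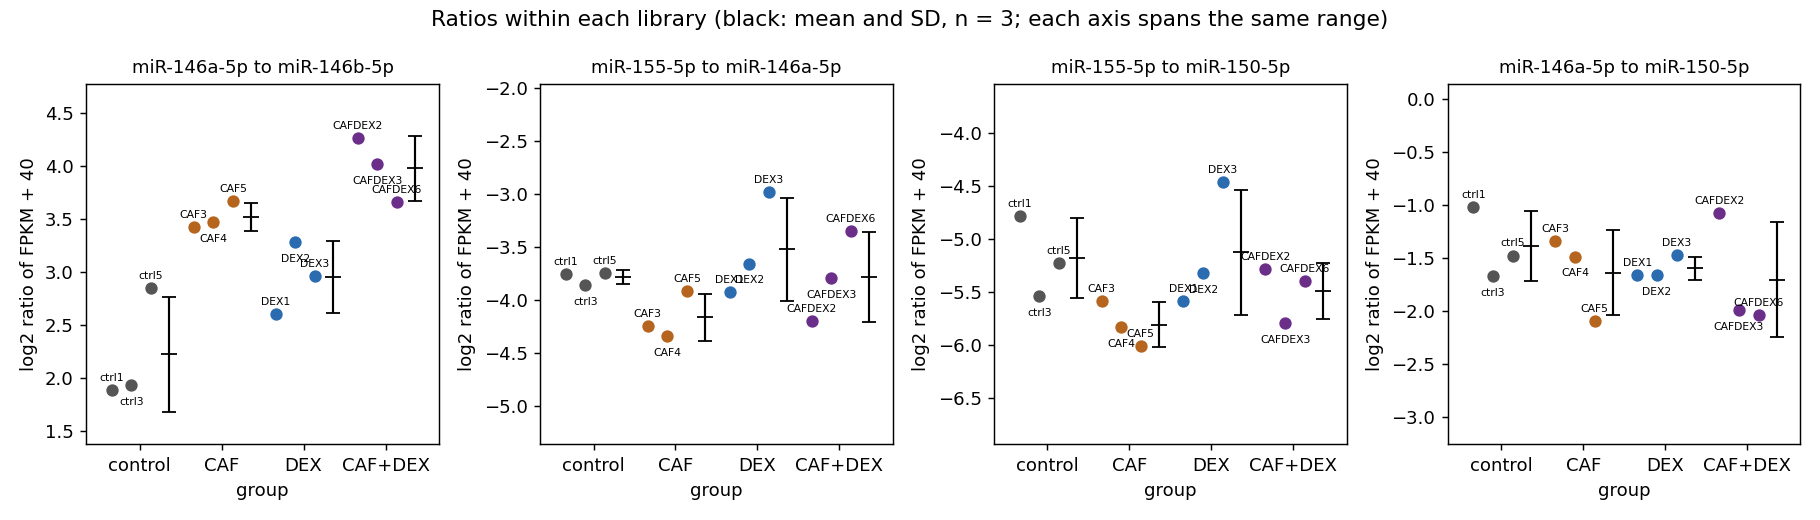
Log2 ratios of FPKM + 40 within each library (vertical axes, each spanning the same range) for 4 pairs of microRNAs by group; points are libraries and black bars the mean and SD of 3. The ratio of miR-146a-5p to miR-146b-5p goes from a mean of 2.22 in control to 3.98 after both drugs, while that of miR-155-5p to miR-146a-5p has means of -3.79 and -3.78 there.

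The opposite arms of the hairpins, which are usually degraded once the guide strand is loaded, were scarce. miR-146a-3p had 1 read in each caffeine library and in DEX2 and none in the other 8 libraries, and miR-155-3p had 1 read in CAFDEX2 alone. miR-146b-3p had 7 to 21 reads in control, 8 to 11 after caffeine, 1 to 3 after dextromethorphan and 2 to 12 after both. Its log2 differences from control were -0.06, -0.62 and -0.19 after caffeine, dextromethorphan and both, and none passed (limma adjusted p = 0.951, 0.413 and 0.839).

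Profiles most like those of the members were ranked by Pearson correlation of log2(FPKM + 40) over the 12 libraries, which share their group structure and depth, so the values are descriptions. For miR-146a-5p the closest of all tested microRNAs were miR-187-3p (r = 0.94, Spearman rho 0.95), miR-150-5p (0.93, 0.96) and miR-147 (0.93, 0.83). For miR-155-5p they were miR-146a-5p (0.89, 0.85), miR-187-3p (0.88, 0.85) and miR-150-5p (0.88, 0.87). For miR-146b-5p they were miR-129-5p (0.73, 0.77), miR-21-5p (0.70, 0.71) and miR-34a-5p (0.63, 0.66), and miR-146a-5p came 37 in that order (r = 0.42).

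Both miR-187-3p and miR-147 are known as microRNAs induced in macrophages by Toll-like receptor ligands, and both belong to a list of 28 further microRNAs of NF-kB and Toll-like receptor responses, which includes the opposite arms above. miR-187-3p stood at 1447, 1800 and 1637 FPKM in ctrl1, ctrl3 and ctrl5, and at 4903, 3552 and 5588 FPKM in CAF3, CAF4 and CAF5. It was 2334, 4202 and 3939 FPKM in DEX1, DEX2 and DEX3, and 8832, 7073 and 4660 FPKM in CAFDEX2, CAFDEX3 and CAFDEX6. All 9 treated libraries were thus above all controls. Taking each treated group separately, 26.0% of tested microRNAs had every caffeine library above every control. The share was 26.0% for the dextromethorphan group and 18.0% for the combination group. miR-187-3p rose by 1.48 ± 0.33 log2 units after caffeine (SE, n = 3 per group, limma adjusted p = 0.0141) and by 2.00 ± 0.33 after both (0.00351), and had 1.04 ± 0.33 after dextromethorphan (0.0516). After caffeine the call was lost without ctrl1 (adjusted p = 0.0730), ctrl3 (0.0869) or CAF5 (0.0963), and after both it held without each library in turn (0.00139 to 0.0357). miR-147 rested on 5 to 37 reads per library and rose by 1.86 ± 0.51 after both drugs (0.0357). This limma call was lost without ctrl1 (adjusted p = 0.176), ctrl3 (0.134), CAF5 (0.0528), CAFDEX2 (0.137) or CAFDEX3 (0.125). It was also lost with no filter (0.0757), no trend (0.0508) or the red-cell ratio as a covariate (0.677).

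Of the 28 listed microRNAs 22 could be tested. After caffeine 2 rose, none fell and 20 did not pass, beside 6.83% of all tested microRNAs called higher, and the median log2 difference of the list was 0.30 against 0.19 for all. The number of listed microRNAs called higher was 1 with median-of-ratios scaling, quantile normalization, no filter or no trend, and 5 with only the groups compared. The other riser was miR-125b-5p, known to dampen TNF production, by 1.49 ± 0.37 (SE, n = 3 per group, adjusted p = 0.0308). This limma call was lost without ctrl1 (adjusted p = 0.149), ctrl3 (0.152), CAF4 (0.101) or CAF5 (0.115). It was also lost with median-of-ratios scaling (0.0537), quantile normalization (0.0877), no filter (0.0620) or no trend (0.0764). After dextromethorphan 3 rose (miR-203a-3p, miR-222-3p and miR-29b-3p), none fell, and 19 did not pass, beside 11.5% of all. The list's median was 0.88 against 0.47. No listed microRNA was higher with voom, no filter, no trend, only the groups compared or without DEX2 and DEX3 together, and 1 was when each row was tested. With median-of-ratios scaling, quantile normalization or rescaling without miR-191a-5p none was higher and 2 were lower. After both drugs 4 rose (miR-187-3p, miR-147, miR-511-5p and miR-125b-5p), miR-223-5p fell and 17 did not pass, beside 6.56% higher and 4.37% lower of all, with a median of 0.48 against 0.24. With median-of-ratios scaling 2 rose and 1 fell, with no filter 1 rose and none fell, and with no trend 2 rose and none fell. The call of miR-223-5p was also lost without ctrl1, ctrl3, ctrl5, CAF3, CAF4, CAF5, CAFDEX2 or CAFDEX3. With the red-cell ratio as a covariate no listed microRNA passed in any of the 3 comparisons, with wider errors and values that moved both ways. miR-125b-5p then had 1.64 ± 0.46 after caffeine and 1.59 ± 0.64 after both (adjusted p = 0.0845 and 0.509), and miR-511-5p 1.97 ± 0.94 after both (0.613). miR-187-3p had 0.99 ± 0.35 after caffeine and 1.05 ± 0.48 after both (0.178 and 0.596). Leaving out each library in turn gave 0 to 3 higher after caffeine, with 0 without ctrl1, ctrl3 or CAF5 and 1 without CAF4. It gave 0 to 5 after dextromethorphan, with 3 or more only in the full set and without DEX1, CAFDEX3 or CAFDEX6. It gave 1 to 5 after both, with 1 without ctrl1, ctrl3, CAF5, CAFDEX2 or CAFDEX3. miR-511-5p rested on 1 to 12 reads per library. The most abundant listed microRNAs besides miR-125b-5p did not pass in any of the 3 comparisons: the neutrophil and monocyte microRNA miR-223-3p had log2 differences of -0.20, -0.66 and -0.22, miR-125a-5p of 1.07, 0.99 and 0.96, and miR-21-5p of -0.01, 0.55 and 0.30, after caffeine, dextromethorphan and both.

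**Figure D4:**
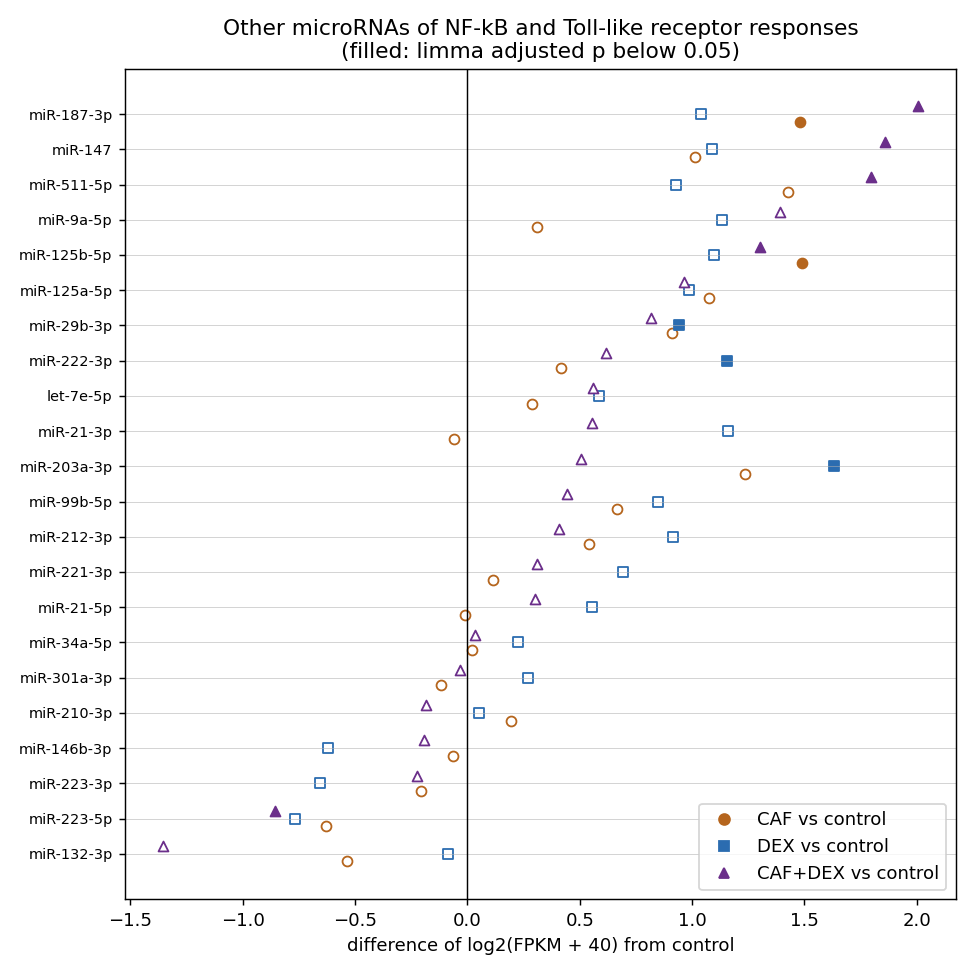
Log2 differences from control (horizontal axis) of the 22 tested microRNAs of the NF-kB and Toll-like receptor list after caffeine (circles), dextromethorphan (squares) and both drugs (triangles); filled symbols have a limma adjusted p below 0.05. After both drugs 4 are filled on the right, led by miR-187-3p at 2.00, and miR-223-5p is filled on the left at -0.86.

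Markers of the blood cells that could release the members did not all move with them. The counts of calls below stand beside these shares of all 366 tested microRNAs. After caffeine 6.83% passed as higher and 1.09% as lower. The shares were 11.5% and 0.546% after dextromethorphan, and 6.56% and 4.37% after both. The summed level of 10 lymphocyte microRNAs, all tested and none at 0 in any library, was 1179300 to 1470700 FPKM in control, 1667300 to 2856900 after caffeine, 1345400 to 2054700 after dextromethorphan and 2638600 to 3625500 after both. Within that sum miR-150-5p alone had a mean of 466492 FPKM in control and 2093215 FPKM after both. After caffeine 1 of the 10 passed as higher, 1 as lower and 8 did not pass, and the same counts held after both. The one higher was miR-150-5p, which rose by 1.43 ± 0.31 and 2.20 ± 0.31 log2 units after caffeine and both (SE, n = 3 per group, limma adjusted p = 0.0137 and 0.00118). After caffeine that call was lost without ctrl1 (adjusted p = 0.0887), ctrl3 (0.0869) or CAF5 (0.0957) and with no trend (0.0641). With the red-cell ratio as a covariate miR-150-5p had 1.12 and 1.59, and neither passed (0.138 and 0.361). miR-181d-5p fell in the same comparisons by 1.55 ± 0.39 and 1.52 ± 0.39 (adjusted p = 0.0308 and 0.0296), and miR-181a-5p rose by 1.05 ± 0.30 after dextromethorphan (0.0352). The other abundant members did not pass: miR-342-3p had 0.66 (adjusted p = 0.0581) and miR-142-5p 0.01 (0.984) after both. The myeloid list, with 7 of 9 microRNAs tested and miR-582-5p and miR-511-3p at 0 in 9 and 11 libraries, summed to 3138800 to 3520000 FPKM in control, 2657800 to 3180200 after caffeine, 2022200 to 2833700 after dextromethorphan and 2588000 to 3596000 after both. No myeloid microRNA passed after either single drug, and after both 1 of 7 rose and 1 fell, miR-511-5p and miR-223-5p. The platelet list (11 of 11 tested) summed to 3577400 to 4081500 FPKM in control, 3216700 to 3814100 after caffeine, 2675500 to 3219700 after dextromethorphan, where every library lay below every control, and 3099700 to 3960400 after both, with 1 microRNA higher and 1 lower there. The most abundant microRNA of the platelet list, miR-223-3p, is on the myeloid list too. It was 2756722.6 to 3169190.7 FPKM in control and 1587468.5 to 2329080.7 FPKM after dextromethorphan. In that comparison 2 platelet microRNAs passed as higher and none as lower. Their list had a median log2 difference of 0.60, against 0.47 for all tested microRNAs. The erythrocyte list (10 of 12 tested) summed to 5671400 to 6772000 FPKM in control, 5189400 to 5550900 after caffeine, where every library lay below every control, 5894600 to 7022200 after dextromethorphan and 5581600 to 7058800 after both, also with 1 higher and 1 lower. Such a lack of overlap was common among single tested microRNAs. In either direction 32.5% of them did not overlap the controls after caffeine, and 33.1% did not after dextromethorphan. After both drugs the platelet calls were miR-126a-3p at 1.60 and miR-151-3p at -1.44, and the erythrocyte calls miR-451-5p at 1.12 and miR-92a-3p at -1.36. After caffeine miR-199a-3p of the platelet list rose by 1.21 and miR-92a-3p fell by 1.02. After dextromethorphan miR-199a-3p and miR-222-3p rose by 1.17 and 1.16, and 4 erythrocyte microRNAs rose, miR-451-3p by 2.15, miR-451-5p by 1.79, miR-144-5p by 1.64 and miR-182 by 1.37. Of 6 hepatocyte microRNAs 3 rose after caffeine, 4 after dextromethorphan and 2 after both, none fell, and miR-122-5p, the main microRNA of liver cells, rose by 1.78, 1.64 and 1.78 log2 units (limma adjusted p = 0.0137, 0.0175 and 0.0156). The others were miR-192-5p in all 3 comparisons, miR-802-5p after each single drug and miR-194-5p after dextromethorphan. The part of these cells in the members' levels was not tested.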

How the data were processed

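The deposited table holds FPKM per mature microRNA, made by the authors, with 836 rows for 752 names and 1 column per library. The submitters' processing notes name build rn6 and, as tools, DESeq2 1.20.0, Subread 2.0.1, featureCounts, STAR 2.7.10a and cutadapt 3.7. The sources used here do not say what each did, nor if the molecular indices of the QIAseq kit were collapsed. RNA came from 200 uL of serum, per the labels' protocols. Column names give the group, but their numbers are not those of the sample titles. Rows of the same name were summed. Library totals were recovered from FPKM steps of 0.01 read (tolerance 0.0001 of a step), which fitted 100% of values above 0. The pseudocount was 40 FPKM, from each library's 10th percentile of nonzero values (their median, rounded to 10). A microRNA was tested if its mean reached 80 FPKM and 3 or more libraries were nonzero, which left 366. limma 3.58.1 (R 4.3.3) used all 4 groups and a mean-variance trend (8 residual and 7.58 prior degrees of freedom), with an adjusted p threshold of 0.05, two-sided, and was tested on simulated data. Ratios were tested by exact permutation (Python 3.11.15, numpy 2.4.6, pandas 2.3.3; figures with matplotlib 3.10.9). No label ties each library to its own rat, so a p-value reflects spread among libraries, which may be technical. Besides the members, the rule for names took their opposite arms, list microRNAs that passed against control or were the 4 most abundant of a list (of the latter only some are printed), the 3 profiles closest to each member and those used in ratios. Members and lists were chosen with earlier results of these data known.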

Additional observations from a re-analysis of the deposited data

How the results depend on the processing

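The log2 differences of the 3 microRNAs from control were recomputed under 12 alternatives (pseudocount, filter, scaling, fit, covariate and the loss of DEX2 and DEX3) and without each library in turn. For miR-146a-5p after caffeine the call was lost with no filter on low values (1.18), without a mean-variance trend (1.18), with median-of-ratios scaling (0.93), with quantile normalization (1.08), without miR-191a-5p (1.08) and with the red-cell ratio as a covariate (0.89). That covariate also ended the calls after both drugs for miR-146a-5p (1.31) and miR-155-5p (1.15), which kept their side of the threshold under the other 11, and it turned miR-146a-5p after dextromethorphan to -0.0332. Signs that turned without any call were those of miR-146b-5p after both drugs (-0.0323 with median-of-ratios scaling, -0.0827 without miR-191a-5p, -0.0048 with the covariate) and, for dextromethorphan against caffeine, of miR-146b-5p (-0.0859 with median-of-ratios scaling, -0.17 with quantile normalization, -0.0857 without miR-191a-5p, -0.0257 with the covariate) and miR-155-5p (-0.0138, -0.16, -0.0135 and -0.40 in that order, and -0.64 without DEX2 and DEX3). The cause was not tested. Without each library in turn the differences from control ran as follows. For miR-146a-5p they were 1.02 to 1.41 after caffeine, 0.52 to 0.91 after dextromethorphan and 1.55 to 2.23 after both. For miR-155-5p they were 0.60 to 1.07, 0.62 to 1.35 and 1.69 to 2.14. For miR-146b-5p they were -0.29 to 0.0327, -0.13 to 0.0671 and -0.0659 to 0.31. In the same runs the comparison of both drugs with dextromethorphan gave -0.0253 to 0.35 for miR-146b-5p, dextromethorphan against caffeine -0.0733 to 0.25 for miR-146b-5p and -0.18 to 0.54 for miR-155-5p, and the interaction -0.32 to 0.36 for miR-146a-5p and -0.26 to 0.47 for miR-155-5p. The ratio of miR-146a-5p to miR-146b-5p kept its call under all 3 alternatives run (adjusted exact permutation p from 0.00857 to 0.0214) and without each library (0.000519 to 0.0374). The adjusted p of the others, without each library, ran from 0.150 to 0.597 for miR-155-5p to miR-146a-5p and to miR-150-5p, and from 0.226 to 0.985 for miR-146a-5p to miR-150-5p. Scaling by median of ratios moved the median log2 difference of all tested microRNAs from 0.19 to -0.04 after caffeine, from 0.47 to 0.11 after dextromethorphan and from 0.24 to 0.09 after both. It changed the split of calls from 25 higher and 4 lower to 12 and 7 after caffeine, from 42 and 2 to 15 and 19 after dextromethorphan, and from 24 and 16 to 19 and 25 after both. Of all tested microRNAs 29, 44 and 40 passed in these comparisons, against 11, 26 and 13 without the filter, 9, 18 and 17 without the trend, and 5, 1 and 1 with the covariate. After caffeine the count was also 19 with median-of-ratios scaling, 18 with quantile normalization, 49 with voom and 65 with only the groups compared. After dextromethorphan it was 28 without miR-191a-5p, 25 with only the groups compared and 18 without DEX2 and DEX3. The list counts were an alternative added after seeing the data. No paired analysis was possible because the numbers in the column names are not the replicate numbers of the titles.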
